A study of Mus musculus with 72 samples.

Results

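The genes described here are 34 of the 37 genes of the mouse mitochondrial genome, chosen as the rows of the gene count table that lie on the chromosome listed as MT, of 55401 gene rows in all. They comprise 12 messenger RNA genes, 2 ribosomal RNA genes and 20 transfer RNA genes, and the other 3 genes of that genome were not analysed here. Expression was measured by RNA sequencing of 2 parts of the hippocampus, dorsal (DH) and ventral (VH), of male mice carrying the strain label C57BL_6J (6J below) or C57BL_6NJ (6NJ). Each region and label had 3 conditions: mice taken from the home cage, mice taken 30 min after a cue alone, and mice taken 30 min after fear conditioning, labelled Shock_Cue (shock-cue below). The labels give no ages. Each of the 12 groups held 6 libraries, 72 in all, with 30330382 to 56258370 gene counts per library (median 36333697).

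The mitochondrial genome is a small circle that encodes a few core subunits of the respiratory chain and of ATP synthase, together with the ribosomal and transfer RNAs needed to translate them inside the organelle. Both strands are transcribed as long precursors, and most messenger and ribosomal RNAs are released when the transfer RNAs that lie between them are cut out. Neurons rely on this system because synaptic activity consumes much ATP. The libraries were made with a kit that selects polyadenylated RNA. The values below, those of ribosomal and transfer RNA genes and of mt-Nd6 among them, therefore describe the molecules that entered such libraries. Mature transfer RNA was not measured as such.

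The substrain names were checked against Nnt, the mitochondrial transhydrogenase gene that is known to carry a deletion in C57BL/6J, and Gabra2, a GABA-A receptor subunit gene that is known to be lower in C57BL/6J. Nnt was at 38 ± 1.87 CPM (counts scaled to the library size; SD, n = 36) in libraries labelled 6J and at 20.3 ± 1.14 CPM in those labelled 6NJ. Gabra2 was at 267 ± 35.4 CPM under the label 6J and at 120 ± 15.7 CPM under 6NJ. Both genes thus went against the labels, and a group is therefore called by its label throughout, with no statement on which substrain it was. Each library also carries a code such as 32A, and each group holds 2 of the 12 code numbers. Every number belongs to 1 label and 1 condition, so that no comparison of labels or conditions can be made within a number. For 6 of the 36 codes (32A, 32B, 34A and 34C after the cue, 35A and 35B from the home cage, all labelled 6J) the acute-phase gene Lcn2 was above 2 CPM in both regions, and several of the calls below were lost without them.

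The 34 genes took 6.97% ± 0.953 (SD, n = 72) of the gene counts of a library, from 5.6% to 9.44%. The messenger RNA genes took 5.88% ± 0.819, the ribosomal RNA genes 1.07% ± 0.159 and the transfer RNA genes 0.0254% ± 0.00439. The lowest share was that of the DH home cage library 42C labelled 6NJ, and the 3 highest were all VH home cage libraries (41A and 42B labelled 6NJ, 36A labelled 6J).

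Among the messenger RNA genes, mt-Co1, which encodes the catalytic subunit of cytochrome c oxidase (complex IV), had the most counts, at 16941 ± 2459 CPM over the 72 libraries. It was followed by mt-Cytb, the cytochrome b of complex III, at 12159 ± 1836 CPM. The complex I subunit genes mt-Nd1, mt-Nd5, mt-Nd2 and mt-Nd4 were at 9311 ± 1541, 7298 ± 1304, 7114 ± 1011 and 5891 ± 879 CPM. Per kilobase of gene the same 6 genes fell between 4001 CPM (mt-Nd5) and 10965 CPM (mt-Co1), with mt-Cytb at 10629 and mt-Nd1 at 9730. The 2 ribosomal RNA genes, mt-Rnr2 for the large and mt-Rnr1 for the small subunit, were nearly level per kilobase, at 4251 and 4208 CPM, the level of mt-Nd4 (4275) and mt-Nd5. In these gene counts, mt-Rnr1, mt-Rnr2 and mt-Nd4 differ per kilobase by far less than their spread over libraries. The level of mt-Nd4 and mt-Co1 depends on the kind of count. In the counts estimated per transcript, described below, mt-Nd4 was at 8849 CPM per kilobase and mt-Co1 at 17959. There mt-Nd1 was at 8939 and mt-Nd5 at 3709, and the ribosomal RNA genes have no such counts. mt-Nd6, the complex I subunit gene that is the only messenger RNA gene on the other strand, stood far lower at 89.8 ± 25 CPM, or 173 CPM per kilobase. Its level before the selection of polyadenylated RNA was not measured.

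The remaining 5 messenger RNA genes were close to nothing in the gene count table. mt-Co2, a copper-binding subunit of complex IV, was at 17.1 ± 9.31 CPM. The 2 ATP synthase genes mt-Atp6 and mt-Atp8 were at 9.04 ± 9.66 and 2.99 ± 4.24 CPM. mt-Co3, a structural subunit of complex IV, was at 6.38 ± 5.24 CPM, and mt-Nd4l, a small subunit of complex I, at 1.3 ± 1.59 CPM. In the second deposited table, which holds counts estimated per transcript, the same genes were at 11218 (mt-Co2), 12117 (mt-Atp6), 12111 (mt-Co3), 1226 (mt-Atp8) and 1539 (mt-Nd4l) CPM. As a share of the estimated counts, the gene counts were 0.153% for mt-Co2, 0.0746% for mt-Atp6, 0.0527% for mt-Co3, 0.244% for mt-Atp8 and 0.0843% for mt-Nd4l.

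**Figure D1:**
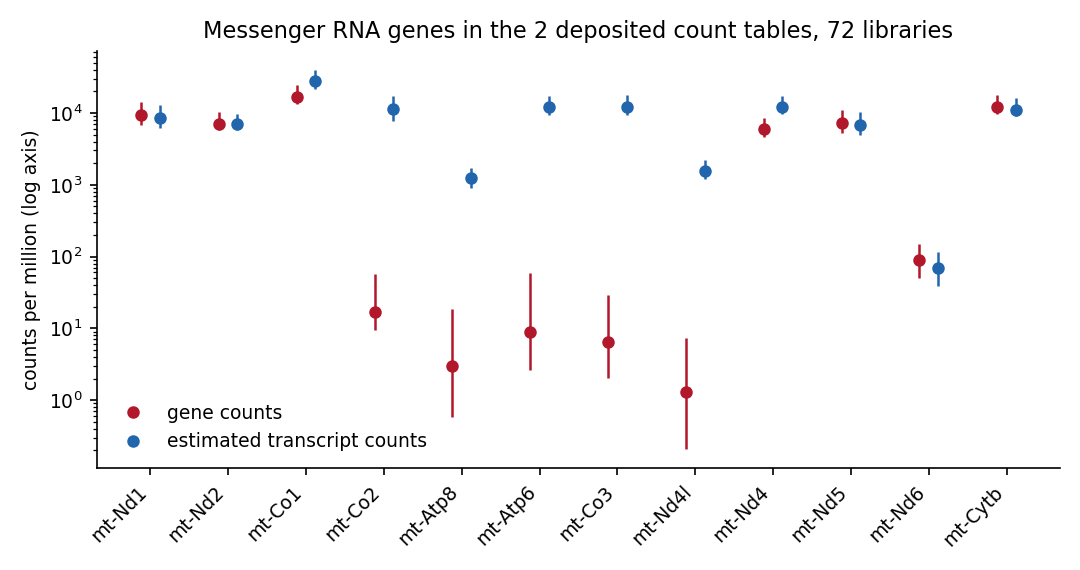
CPM (log axis) of the 12 messenger RNA genes, in the order in which they lie on the genome, in the gene count table (red) and the estimated transcript counts (blue). Points are means over 72 libraries and lines run from the lowest to the highest library. mt-Co2, mt-Atp8, mt-Atp6, mt-Co3 and mt-Nd4l stand far apart between the tables, mt-Co1 and mt-Nd4 moderately, and mt-Nd2 hardly at all.

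The 5 low genes and the adjoining parts of mt-Co1 and mt-Nd4 are a single stretch of the mitochondrial genome, from base 6381 to base 11042 (GRCm38), of which chromosome 1 carries a copy on its minus strand. The annotation (GENCODE vM21) lists pieces of the copy as pseudogenes: Gm29216 for the last part of mt-Co1, Gm28661 for mt-Co2, Gm10925 for mt-Atp6, Gm28437 for mt-Co3, Gm10222 for mt-Nd4l and Gm28439 for the first part of mt-Nd4. Over the 681 bases of Gm28661 there was no mismatch to mt-Co2, and likewise none over the 678 bases of Gm10925, the 783 of Gm28437, the 294 of Gm10222 and the 876 of Gm28439. Gm29216 had 6 mismatches in 492 bases, and they all fall near its start. Counted from 1 at the first base of mt-Co1, with the base of mt-Co1 first, they are T1056A, C1057T, A1059G, A1060G, C1062A and A1066T. The first 60 bases of the Gm29216 alignment and of the Gm28661 alignment are shown because they mark the edge of the copied stretch and its interior. Capitals mark bases that differ between the partners, and all are written 5′ to 3′ in the direction of the gene.
mt-Co1, MT:6381-6440, plus strand: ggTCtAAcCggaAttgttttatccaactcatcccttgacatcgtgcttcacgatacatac
Gm29216, chr1:24616138-24616197, minus strand: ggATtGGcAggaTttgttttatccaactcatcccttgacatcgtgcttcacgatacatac
mt-Co2, MT:7013-7072, plus strand: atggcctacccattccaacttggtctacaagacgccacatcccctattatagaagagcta
Gm28661, chr1:24615506-24615565, minus strand: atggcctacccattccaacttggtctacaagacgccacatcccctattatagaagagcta

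The share of a gene that a read of 75 bases could not tell from an annotated nuclear transcript was counted over all windows of that length. It was 99.9% for mt-Co3, 99.5% for mt-Co2 and for mt-Atp6, 98.7% for mt-Nd4l, 61.5% for mt-Nd4 and 39.8% for mt-Co1. It was 5.71% for mt-Nd2, 1.66% for mt-Nd5, and 0 for mt-Nd1, mt-Cytb, mt-Nd6, mt-Rnr1 and mt-Rnr2. The gene counts of mt-Nd4 and mt-Co1 were 48.3% and 61.1% of their estimated counts, while those of mt-Nd2, mt-Nd5, mt-Nd1 and mt-Cytb were 100%, 108%, 109% and 109%, and those of mt-Nd6 were 128%. Among these genes, the 6 with the largest shares of such windows were the 6 with fewer gene counts than estimated counts. How reads that match several places were handled in the gene counting is not given in the sources used here. The pseudogenes were low in the gene table as well, with means of 0.466 (Gm10222) to 17.7 (Gm28437) CPM. In the estimated counts Gm29216 was at 5145 CPM, Gm28661 at 418, Gm10925 at 88, Gm28437 at 5.91, and Gm10222 and Gm28439 were at 0 in all libraries.

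mt-Atp8 was the exception to the window count, with 0 of its windows in an annotated nuclear transcript although its gene count was as low as the others. All but its last 43 bases lie in a gap of 233 bases between the matches of Gm28661 and Gm10925, and the gap between these pseudogenes on chromosome 1 has the same 233 bases in length. The sequence of that gap on chromosome 1 was not used here. mt-Atp8 is shown whole because it is the gene for which the annotated transcripts give no partner. Capitals mark the last 43 bases, which are also the start of mt-Atp6 and lie within the match of Gm10925.
mt-Atp8, MT:7766-7969, plus strand: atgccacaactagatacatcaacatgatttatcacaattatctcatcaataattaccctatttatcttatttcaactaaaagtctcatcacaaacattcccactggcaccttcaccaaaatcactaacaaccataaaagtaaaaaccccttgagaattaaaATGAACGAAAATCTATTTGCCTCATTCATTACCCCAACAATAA

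The gene counts of the 5 low genes also jumped between libraries. mt-Atp8 ran from 0.581 to 18.6 CPM with a median of 1.08, and 18 of 72 libraries lay above 3 times that median. mt-Atp6 ran from 2.59 to 59.2 CPM (median 4.52), mt-Co3 from 2.05 to 28.7 (median 4.35) and mt-Nd4l from 0.209 to 7.4 (median 0.652). mt-Co2 was steadier, at 9.36 to 56.4 CPM with 4 libraries above 3 times its median of 14.3. Gm28437, the copy of mt-Co3, ran from 1.32 to 96.4 CPM (median 2.94), with 24 libraries above 3 times its median. In the estimated counts the same genes kept closer to their means, with libraries from 7765 to 17034 CPM for mt-Co2, 9425 to 17394 for mt-Atp6, 9479 to 17874 for mt-Co3, 893 to 1730 for mt-Atp8 and 1202 to 2247 for mt-Nd4l. Where a comparison below names 1 of these 5 genes, its estimated counts are given too. Together they took 3.81% ± 0.505 of the estimated counts of a library, and the 12 messenger RNA genes 11.2% ± 1.44. Per kilobase of gene, the estimated counts put mt-Co1 (17959 CPM) and mt-Atp6 (17793) at the top, followed by mt-Co2 (16400) and mt-Co3 (15447).

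Of the 20 transfer RNA genes, 4 carried nearly all the counts. These were mt-Tl1 (leucine) at 71.9 ± 17.7 CPM, mt-Ti (isoleucine) at 60.9 ± 11.6, mt-Tw (tryptophan) at 59.3 ± 12.5 and mt-Tm (methionine) at 46.2 ± 7.5 CPM. The next was mt-Tf (phenylalanine), at 3.04 ± 0.779 CPM. The rest ran down to mt-Ts1 (serine), without a count in 58 of the 72 libraries, and mt-Tk (lysine), without one in 55, both named for these values after they were seen, as is mt-Ty below. A count of 0 allows up to 0.0533 CPM in the deepest library and 0.0989 in the shallowest, counting error only. The genes are 59 (mt-Ts2) to 75 (mt-Tl1) bases long, so a read of 75 bases fits whole only in mt-Tl1. On the strand of the ribosomal genes, the bases around each gene that no other listed gene of that strand covers, its own included, numbered 376 for mt-Tw, 139 for mt-Tm, 137 for mt-Ti and 75 for mt-Tl1. For mt-Tl2, mt-Tv, mt-Tk, mt-Th and mt-Ts2, which lie wedged between neighbours, they numbered 70, 69, 69, 68 and 58, and these genes were at 0.798, 1.28, 0.00819, 0.679 and 0.168 CPM. mt-Td (aspartate) had 140 such bases, lies between mt-Co1 and mt-Co2, and was at 0.427 CPM. On the other strand, mt-Ts1 had 8225 bases at 0.026 CPM, mt-Ty (tyrosine) 1612 at 0.121, mt-Te (glutamate) 1285 at 2.23 and mt-Ta (alanine) 1246 at 0.543. A relation of free bases to counts was not tested. mt-Ts1, mt-Td and mt-Tk lie within the stretch described above of which chromosome 1 carries a copy. The part of that copy in their counts was not tested. The strand setting of the counting is not given, so counts of the 8 transfer RNA genes on the other strand (0.026 to 2.23 CPM) cannot be assigned to a strand with certainty.

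**Figure D2:**
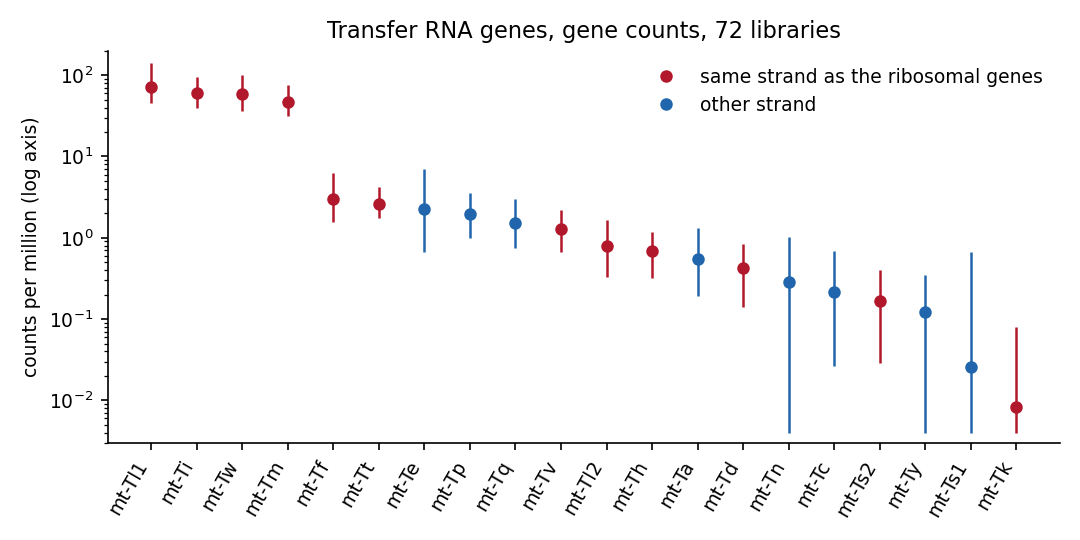
CPM (log axis) of the 20 transfer RNA genes, ordered by their mean over 72 libraries. Points are means, lines run from the lowest to the highest library, a lowest value of 0 is drawn at the foot of the axis, and colour gives the strand. mt-Tl1, mt-Ti, mt-Tw and mt-Tm stand at 46.2 to 71.9 CPM and every other gene at 3.04 CPM or less.

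The 4 genes with most counts are shown because the results below turn on mt-Tl1 and because mt-Ti overlaps mt-Tq, the glutamine transfer RNA gene of the other strand. Capitals mark the 3 bases of that overlap, and mt-Tl1, mt-Tm and mt-Tw have none.
mt-Tl1, MT:2676-2750, plus strand: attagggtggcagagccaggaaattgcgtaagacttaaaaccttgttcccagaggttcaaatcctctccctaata
mt-Ti, MT:3706-3774, plus strand: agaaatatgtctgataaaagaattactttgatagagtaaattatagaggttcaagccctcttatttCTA
mt-Tq, MT:3772-3842, minus strand: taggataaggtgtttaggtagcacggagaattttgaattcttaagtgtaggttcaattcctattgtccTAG
mt-Tm, MT:3845-3913, plus strand: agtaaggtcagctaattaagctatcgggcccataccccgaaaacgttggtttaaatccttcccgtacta
mt-Tw, MT:4950-5016, plus strand: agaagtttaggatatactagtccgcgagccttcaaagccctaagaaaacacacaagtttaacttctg

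The 6 messenger RNA genes with the most counts rose and fell together from library to library within a group, and so did the 2 ribosomal RNA genes. Deviations of log2 CPM from the group means over the 72 libraries correlated at 0.95 or above (median 0.97) among mt-Nd1, mt-Nd2, mt-Co1, mt-Nd4, mt-Nd5 and mt-Cytb, and at 0.99 between the ribosomal RNA genes. Between the ribosomal genes and those 6 genes the values were 0.85 to 0.92. The genes of the other strand with enough counts (mt-Nd6, mt-Tq, mt-Te and mt-Tp) correlated less with the 6 genes (0.16 to 0.54, median 0.47) than among themselves (0.42 to 0.84, median 0.71). The low messenger RNA genes with enough counts reached 0.33 to 0.46 with the 6 genes. These are descriptions over libraries that share their depth scaling, and in sparse transfer RNA counts part of the scatter is counting error.

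The first comparison the design allows is that of mice after the cue with mice from the home cage. In 3 of the 4 groups of region and label some messenger RNA genes and mt-Tl1 fell after the cue, and neither ribosomal RNA gene passed the test in any of the 4. With only the groups compared in the fit, fewer members were called in the DH labelled 6J and the VH labelled 6NJ. Without the low-count filter, fewer were called in the VH under both labels. In bulk tissue, fewer cells rich in mitochondria and less mitochondrial RNA per cell cannot be told apart. In the DH labelled 6J, mt-Tl1 was at 68.6 to 123 CPM (median 85.1) in home cage libraries and at 56.9 to 71.5 (median 62.1) after the cue, with little overlap. It fell by 0.49 ± 0.12 on the log2 scale (SE, adjusted p = 0.0115). mt-Nd1 was at 8163 to 11994 CPM (median 9242) in the home cage and at 6824 to 8317 (median 7851) after the cue, a fall by 0.32 ± 0.0848 (adjusted p = 0.0195). mt-Nd5 fell by 0.31 ± 0.0827 (adjusted p = 0.0206), from a median of 7508 to 6368 CPM, and its ranges (6748 to 9835 and 5808 to 6888) barely overlapped. The sparse alanine transfer RNA gene mt-Ta fell by 1.26 ± 0.332 (adjusted p = 0.0172), from a median of 0.688 to 0.29 CPM. These 4 of 29 members tested were all lower, against 2.08% of the 19647 genes tested that were lower and 5.89% called in either direction. The medians of the log2 difference were -0.22 over the messenger, 0.04 over the ribosomal and -0.46 over the transfer RNA members, and -0.004 over all genes. Here and below, medians over messenger RNA members include the low genes at their gene counts; with the estimated counts this median was -0.23.

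In the DH labelled 6NJ, no member passed the threshold after the cue by edgeR's quasi-likelihood test, where 2.36% of all genes did. 5 of the 29 members had an unadjusted p under 0.05. DESeq2 called 2 members, and 631 of 18116 genes over all. mt-Tl1 was at 68.1 to 88.1 CPM in the home cage and at 44.9 to 66.3 after the cue, so that the groups did not overlap. Its log2 difference was -0.42 ± 0.12 (adjusted p = 0.0575). mt-Nd1 (-0.14 ± 0.0847) and mt-Nd5 (-0.17 ± 0.0827) overlapped between the groups. The median over the messenger RNA members was -0.10 (estimated counts -0.11).

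In the VH labelled 6J, 9 of 30 members were lower after the cue and none higher, against 5.07% of the 19597 genes tested that were lower and 12.8% called in either direction. mt-Nd1 went from 9867 to 13289 CPM (median 11323) in the home cage to 7309 to 9693 (median 9067) after the cue. These groups did not overlap, and the fall was by 0.37 ± 0.106 (adjusted p = 0.0213). mt-Nd5 fell by 0.33 ± 0.101 and mt-Nd4 by 0.29 ± 0.1 (adjusted p = 0.0273 and 0.0485). mt-Nd5 was at 8338 to 11107 CPM in the home cage and at 6225 to 8034 after the cue, again without overlap. mt-Tl1 went from 70.9 to 121 CPM (median 94.2) to 61.2 to 74.8 (median 67.2), with some overlap, and fell by 0.49 ± 0.142 (adjusted p = 0.0222). The other transfer RNA genes called were mt-Tq (-0.70 ± 0.193), mt-Tl2 for leucine (-0.60 ± 0.187), mt-Tp for proline (-0.53 ± 0.173) and mt-Ta (-0.97 ± 0.271). mt-Atp8 was lower by its estimated counts (-0.29 ± 0.095, adjusted p = 0.0424). In the gene counts it was called at -2.99 ± 0.954, where its home cage libraries ran from 0.791 to 18.6 CPM. The median log2 difference was -0.41 over the messenger (estimated counts -0.28), 0.01 over the ribosomal and -0.46 over the transfer RNA members.

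In the VH labelled 6NJ, 7 of 30 members were lower after the cue, against 5.89% of all genes lower and 12.9% called in either direction. They were mt-Co1 (-0.29 ± 0.0982), mt-Cytb (-0.30 ± 0.101), mt-Nd1 (-0.34 ± 0.106), mt-Nd5 (-0.36 ± 0.101), mt-Tl1 (-0.62 ± 0.143), mt-Tq (-0.61 ± 0.187) and mt-Tn for asparagine (-1.37 ± 0.435), with adjusted p from 0.00585 (mt-Tl1) to 0.0479 (mt-Cytb). mt-Tl1 was at 69.5 to 140 CPM (median 82.8) in the home cage and at 54.2 to 64.9 (median 61.7) after the cue, without overlap. mt-Nd1 was at 8970 to 14417 CPM in the home cage and at 8337 to 9578 after the cue, and the ranges overlapped at the lower end. In the estimated counts 7 of the 12 messenger RNA genes were lower, among them mt-Co2 (-0.37 ± 0.12), mt-Nd4l (-0.29 ± 0.0966) and mt-Atp8 (-0.28 ± 0.095). The ribosomal RNA genes had a median of -0.15 and neither was called.

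mt-Rnr2 was compared with the messenger RNA genes. Its log2 difference after the cue was -0.00 ± 0.0952 in the DH and -0.02 ± 0.111 in the VH labelled 6J, and 0.07 ± 0.0952 and -0.16 ± 0.111 under the label 6NJ. In the DH labelled 6J its libraries ran from 5546 to 7600 CPM in the home cage and from 5920 to 7399 after the cue. The 95% interval in that group, -0.20 to 0.19, does not reach the estimates for mt-Nd1 and mt-Nd5. In the VH labelled 6NJ the interval of mt-Rnr2, -0.39 to 0.06, does reach them (-0.34 and -0.36). The difference between mt-Rnr2 and these genes was not itself tested.

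After fear conditioning the same genes were compared with the same home cage libraries, so these comparisons share their controls with those after the cue. mt-Tl1 was lower in the DH labelled 6J (-0.48 ± 0.12, adjusted p = 0.0304), the VH labelled 6J (-0.52 ± 0.143, adjusted p = 0.0385) and the VH labelled 6NJ (-0.57 ± 0.143, adjusted p = 0.0116). Its libraries ran from 53.7 to 71 CPM, from 52.8 to 84.5 and from 56.9 to 70.3 there, against home cage medians of 85.1, 94.2 and 82.8. In the DH labelled 6NJ mt-Tl1 ran from 59.7 to 89.5 CPM and overlapped the home cage libraries, with a log2 difference of -0.09 ± 0.119. With only the groups compared in the fit none of the 3 calls of mt-Tl1 was kept (adjusted p = 0.113, 0.12 and 0.0753), and without the low-count filter those under the label 6J were lost (adjusted p = 0.0727 and 0.0748). Without the Lcn2 codes mt-Tl1 was at -0.32 (adjusted p = 0.25) in the DH and -0.40 (adjusted p = 0.213) in the VH labelled 6J. Besides mt-Tl1, mt-Te (glutamate; -1.50 ± 0.372, adjusted p = 0.0295) was lower in the DH labelled 6J and mt-Td (-0.81 ± 0.242, adjusted p = 0.0311) in the VH labelled 6NJ. Of all genes, 1.76% were called and 0.473% were lower in the DH labelled 6J, 3.11% and 1.27% in the VH labelled 6J, and 8.65% and 4.1% in the VH labelled 6NJ. edgeR's test called 0 messenger RNA genes after shock-cue in each of the 4 groups. DESeq2 called 1, in the VH labelled 6NJ, where it called 2023 of 18074 genes over all. With an unadjusted p under 0.05 there were 4, 3, 7 and 4 of the 12 messenger RNA genes in the DH labelled 6J and 6NJ and the VH labelled 6J and 6NJ.

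The DH labelled 6NJ differed in what was called after shock-cue: both ribosomal RNA genes were higher, against 2.3% of all genes higher and 3.57% called. mt-Rnr1 went from 2868 to 3749 CPM (median 3428) in the home cage to 3474 to 5499 (median 4474), with a log2 difference of 0.39 ± 0.0981 (adjusted p = 0.0177). mt-Rnr2 went from 4721 to 6053 CPM (median 5645) to 5709 to 8881 (median 7071), at 0.36 ± 0.0953 (adjusted p = 0.0254). The groups overlapped in part for both. The interaction of the label with the shock-cue difference was not past the threshold for either gene, and for mt-Rnr2 it was 0.33 ± 0.135 (adjusted p = 1). Neither gene was called when only the libraries of the 2 groups compared entered the fit.

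**Figure D3:**
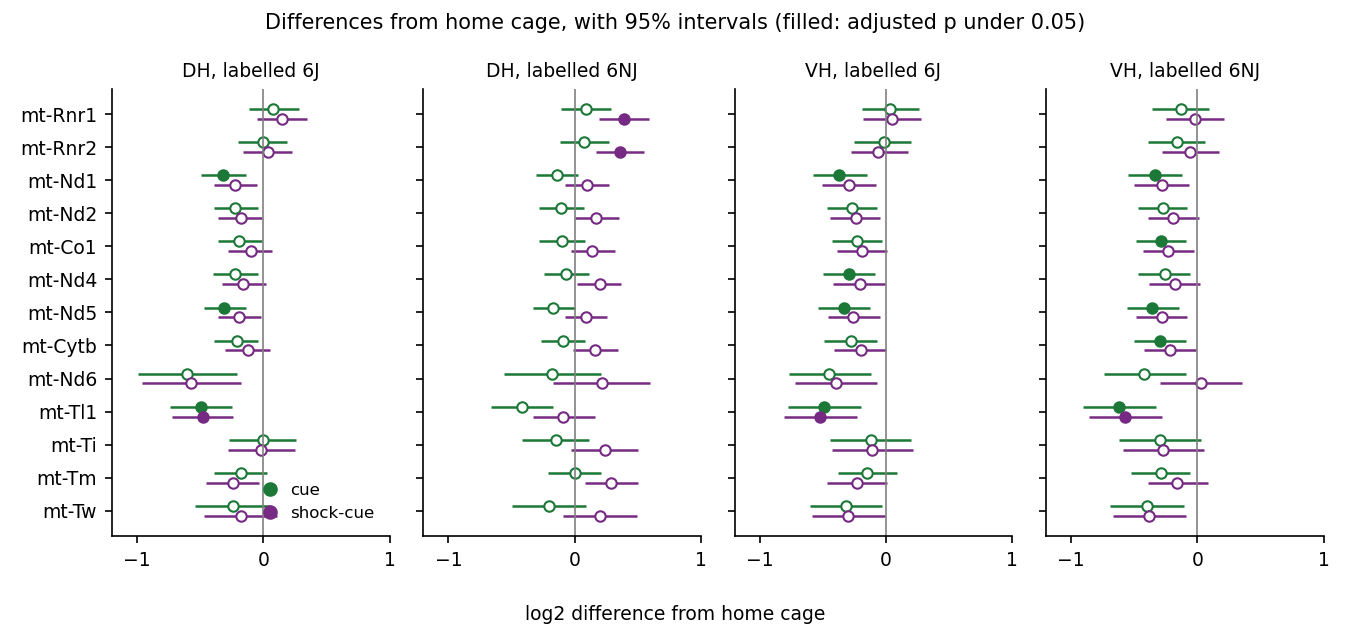
Log2 differences from home cage libraries after the cue (green) and after shock-cue (purple) for the ribosomal RNA genes, the 6 messenger RNA genes with the most counts, mt-Nd6 and the 4 highest transfer RNA genes, in 4 panels by region and label. Lines are 95% intervals derived from edgeR's test and filled points have an adjusted p under 0.05. mt-Tl1 is filled in 6 of the 8 comparisons and the ribosomal genes only after shock-cue in the DH labelled 6NJ (0.39 and 0.36).

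No member separated shock-cue from cue. edgeR's quasi-likelihood test called 0 members in each of the 4 groups, with 0% of all genes called. At an unadjusted p under 0.05 there were 0 members in the DH labelled 6J, 18 of 29 in the DH labelled 6NJ, 0 in the VH labelled 6J and 7 of 30 in the VH labelled 6NJ, and DESeq2 called 0 in each. In the DH labelled 6NJ the median log2 difference of shock-cue from cue was 0.25 over the messenger RNA members and 0.29 over the ribosomal ones. For the 4 interactions of label with condition, edgeR and DESeq2 called 0 members each, and 0% of all genes were called by edgeR. The members with an unadjusted p under 0.05 numbered 4 (cue) and 19 (shock-cue) of 29 in the DH and 0 and 4 of 30 in the VH. Counts at an unadjusted p, here and elsewhere, stand without the share of all genes at that threshold. Many members also vary together within groups, so such counts are not counts of separate results.

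Ratios of members within a library do not depend on the scaling of libraries to each other. They were chosen after the values were seen and are given as a description, with no test. The counts of mt-Rnr1 and mt-Rnr2 over those of mt-Nd1, mt-Nd2, mt-Co1, mt-Nd4, mt-Nd5 and mt-Cytb gave a ratio of 0.164 ± 0.011 in the DH home cage libraries labelled 6J, 0.197 ± 0.0156 after the cue and 0.192 ± 0.00584 after shock-cue (SD, n = 6). Under the label 6NJ the DH values were 0.162 ± 0.00748, 0.185 ± 0.00722 and 0.19 ± 0.00706. In the VH they were 0.17 ± 0.00765, 0.207 ± 0.0186 and 0.195 ± 0.0101 under the label 6J, and 0.166 ± 0.00837, 0.185 ± 0.00782 and 0.19 ± 0.00838 under 6NJ. In the DH, 11 of the 12 home cage libraries were below all 24 libraries of mice after cue or shock-cue, and in the VH likewise 11 of 12. Within each label of the VH, and within the label 6NJ of the DH, the 6 home cage libraries were all below the other 12.

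mt-Tl1 lies without a gap between mt-Rnr2 and mt-Nd1, and its counts were set against both neighbours. Per 1000 counts of mt-Rnr2 it had 12.1 to 16.6 counts in the 12 DH home cage libraries and 8.51 to 11.4 in the other 24 DH libraries, without overlap. In the VH it had 9.67 to 14.8 in home cage libraries and 8.07 to 10.4 in the others, with 1 home cage library inside that range. Against mt-Nd1 the separation was weaker. Per 1000 counts of mt-Nd1 the DH values were 7.69 to 11.4 in the home cage and 5.76 to 8.86 after cue or shock-cue, and 2 of the 12 home cage libraries lay above all others. The ratio of mt-Rnr2 to mt-Rnr1 was also higher in home cage libraries labelled 6J, at 1.71 to 1.8 against 1.57 to 1.67 in the DH and 1.74 to 1.88 against 1.66 to 1.76 in the VH, while under the label 6NJ the ranges largely overlapped (1.58 to 1.67 and 1.56 to 1.66 in the DH).

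**Figure D4:**
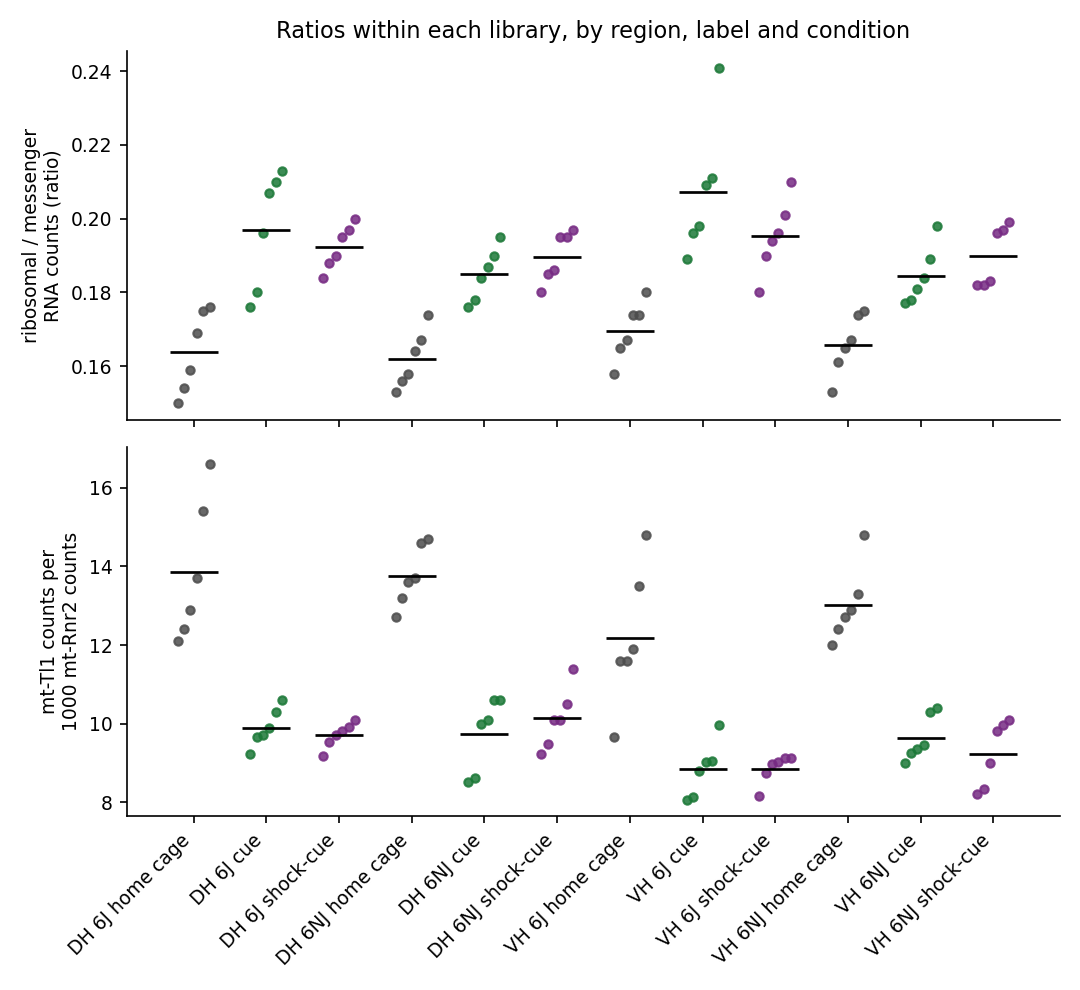
Ratio of ribosomal to messenger RNA counts (upper panel) and counts of mt-Tl1 per 1000 counts of mt-Rnr2 (lower panel) in each of the 72 libraries, by region, label and condition, with lines at the group means. Home cage libraries (grey) lie at 0.15 to 0.18 in the upper panel and at 9.67 to 16.6 in the lower one, against 0.176 to 0.241 and 8.07 to 11.4 after cue (green) or shock-cue (purple).

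The calls after the cue under the label 6J were not kept when the libraries with Lcn2 were left out. Fewer libraries alone can cost calls, so a part of these codes and the smaller groups cannot be told apart. Without those 6 codes, 2 cue and 4 home cage libraries labelled 6J remained in each region, and edgeR called 0 members after the cue in the DH (from 4) and 0 in the VH (from 9). Over all genes the calls fell as well, from 1157 to 31 in the DH and from 2518 to 47 in the VH. mt-Nd1 was at -0.27 (adjusted p = 0.703) and mt-Nd5 at -0.32 (adjusted p = 0.553) in the DH, and at -0.28 and -0.27 in the VH. mt-Tl1 was at -0.34 and -0.32. The ratio of ribosomal to messenger RNA counts ran from 0.15 to 0.169 in the 4 remaining DH home cage libraries and from 0.18 to 0.196 in the 2 cue libraries, and in the VH from 0.158 to 0.174 and from 0.189 to 0.196. mt-Tl1 per 1000 counts of mt-Rnr2 ran from 12.1 to 13.7 and from 10.3 to 10.6 in the DH, while in the VH the ranges (9.67 to 11.9 and 9.04 to 9.96) overlapped. In the DH labelled 6J the summed markers of choroid plexus, a tissue next to the hippocampus, ran from 59 to 3575 CPM in the home cage and from 60.2 to 9090 after the cue, with 0 of 10 markers called (0 at an unadjusted p under 0.05, edgeR) and a median log2 difference of 1.29. Summed oligodendrocyte markers went from 8695 to 10757 CPM in the home cage to 6418 to 9062 after the cue there, with 1 of 10 called lower (Opalin, a myelin protein gene, -0.50 ± 0.145, adjusted p = 0.0329) and a median of -0.26. Their part in the results was not tested.

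Nuclear genes that serve the mitochondrial genome were read beside its own genes. Of 32 tested gene models for transcription and RNA processing in the organelle, 1 was higher and 0 lower after the cue in the DH under either label, 1 higher and 2 lower in the VH labelled 6J, and 3 higher and 1 lower in the VH labelled 6NJ. Over all genes tested 5.89% and 2.36% were called in the DH and 12.8% and 12.9% in the VH, so these counts are near or below the background. The gene that rose in all 4 groups was Fastkd5, whose protein helps mature mitochondrial messenger RNAs that are not flanked by transfer RNAs. Its log2 difference after the cue was 0.31 ± 0.0755 in the DH labelled 6J (adjusted p = 0.0107) and 0.34 ± 0.0744 in the DH labelled 6NJ (adjusted p = 0.00793). In the VH it was 0.34 ± 0.0649 (adjusted p = 0.000781) under 6J and 0.33 ± 0.064 (adjusted p = 0.00113) under 6NJ. Trmt10c, a subunit of the enzyme that cuts mitochondrial transfer RNAs at their 5′ ends, rose by 0.35 ± 0.0751 in the VH labelled 6NJ (adjusted p = 0.00269). Fastk, a relative of Fastkd5 with a role in mt-Nd6 RNA, was lower in the VH under both labels (-0.17 ± 0.0387 under 6J with adjusted p = 0.00443, and -0.14 ± 0.0387 under 6NJ with adjusted p = 0.0182). Elac2, which cuts the 3′ ends of transfer RNAs, was lower in the VH labelled 6J (-0.12 ± 0.0397, adjusted p = 0.0351). Without the Lcn2 codes none of these calls under the label 6J was kept: Fastkd5 was at 0.30 (adjusted p = 0.563) in the DH and 0.29 (adjusted p = 0.282) in the VH, Fastk at -0.17 (adjusted p = 0.276) and Elac2 at -0.08 (adjusted p = 0.616). Under 6NJ, Fastkd5 kept its calls (adjusted p = 0.0142 and 0.002).

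Nuclear subunits of complexes III, IV and V, the partners of the proteins of mt-Cytb, the mt-Co genes and the mt-Atp genes, were read in the same way. In the VH labelled 6NJ 7 of 37 gene models were lower after the cue and 0 higher, with Uqcr11 of complex III at -0.28 ± 0.0859 (adjusted p = 0.0309) and Cox6a1 of complex IV at -0.27 ± 0.0874 (adjusted p = 0.0371). edgeR's test called 0 of 37 in the DH labelled 6J, the DH labelled 6NJ and the VH labelled 6J, with 2, 1 and 3 at an unadjusted p under 0.05, 0 by DESeq2 and medians of -0.05, -0.03 and -0.10. Of the mitochondrial ribosomal proteins, which bind the RNAs of mt-Rnr1 and mt-Rnr2, 10 of 48 large and 4 of 31 small subunit genes were lower after the cue in the VH labelled 6NJ. In the VH labelled 6NJ 12.9% of all genes were called, and without the Lcn2 codes, which share the fit, 2 of the 37 subunits, 5 large and 3 small ribosomal subunit genes were lower there. In the VH labelled 6J 3 large and 3 small subunit genes were lower and 1 large subunit gene higher, and in the DH edgeR's test called 0, with 9 large and 7 small subunit genes at an unadjusted p under 0.05 under the label 6J and 6 and 4 under 6NJ, while DESeq2 called 2 large subunit genes under 6J and 0 under 6NJ. Over all genes DESeq2 called 1399 of 19258 in the DH labelled 6J and 631 of 18116 in the DH labelled 6NJ. Without the Lcn2 codes edgeR called 0 ribosomal protein genes in the VH labelled 6J.

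The second comparison is between the labels. Over the mean of the 3 conditions in the DH, 1 of 29 members was called, mt-Tf, while 14.7% of all genes were called and 8.06% were higher. mt-Tf is the first gene of the strand that carries the ribosomal RNAs. It ran from 1.55 to 4.08 CPM (median 2.72) in the 18 libraries labelled 6J and from 2.14 to 5.26 (median 3.36) in the 18 labelled 6NJ, ranges that overlap widely, and was higher under 6NJ by 0.33 ± 0.0888 (adjusted p = 0.00901). In the VH 5 of 30 members were called, against 9.92% of all genes. mt-Nd5 was lower under 6NJ by 0.20 on the log2 scale (-0.20 ± 0.0581, adjusted p = 0.027), with 6175 to 11107 CPM (median 8186) under 6J and 6122 to 10057 (median 6992) under 6NJ. mt-Tq (0.39 ± 0.11, adjusted p = 0.019) and the valine transfer RNA gene mt-Tv (0.35 ± 0.096, adjusted p = 0.016) were higher under 6NJ, and mt-Td (-0.42 ± 0.134, adjusted p = 0.0386) was lower. The estimated counts of mt-Atp6 gave -0.06 ± 0.0599 (adjusted p = 0.621), while its gene counts gave a call at -1.16 ± 0.361 (adjusted p = 0.038). With the Lcn2 codes left out, 1 member was called in the VH, and mt-Nd5 was at -0.22 (adjusted p = 0.0543).

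In home cage mice alone, edgeR's test called 0 members between the labels in either region, with 0.931% of all genes called in the DH and 1.35% in the VH. At an unadjusted p under 0.05 there were 8 of 29 members in the DH and 3 of 30 in the VH, and DESeq2 called 0 in both. mt-Nd5 was at -0.27 ± 0.0827 in the DH (adjusted p = 0.121) and at -0.18 ± 0.101 in the VH (adjusted p = 0.476). The interaction of region and label called 0 members by edgeR and DESeq2 (2 of 31 at an unadjusted p under 0.05, and 0.00494% of all genes called).

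Set against mt-Nd1 in the same library, mt-Nd5 separated the labels completely, a description that was again chosen after the values were seen. The ratio of mt-Nd5 to mt-Nd1 counts ran from 0.787 to 0.854 in the 18 DH libraries labelled 6J and from 0.653 to 0.75 in the 18 labelled 6NJ. In the VH it ran from 0.799 to 0.911 and from 0.696 to 0.795. All 18 libraries labelled 6NJ were below all 18 labelled 6J in each region, whatever their condition. The means were 0.824 ± 0.021 and 0.716 ± 0.0294 in the DH and 0.851 ± 0.0245 and 0.748 ± 0.0255 in the VH (SD, n = 18). Against mt-Cytb both genes contributed, with mt-Nd1 at 0.738 ± 0.0375 (6J) and 0.784 ± 0.0186 (6NJ) and mt-Nd5 at 0.608 ± 0.0224 and 0.561 ± 0.0277 in the DH, and each of these ratios overlapped between the labels.

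**Figure D5:**
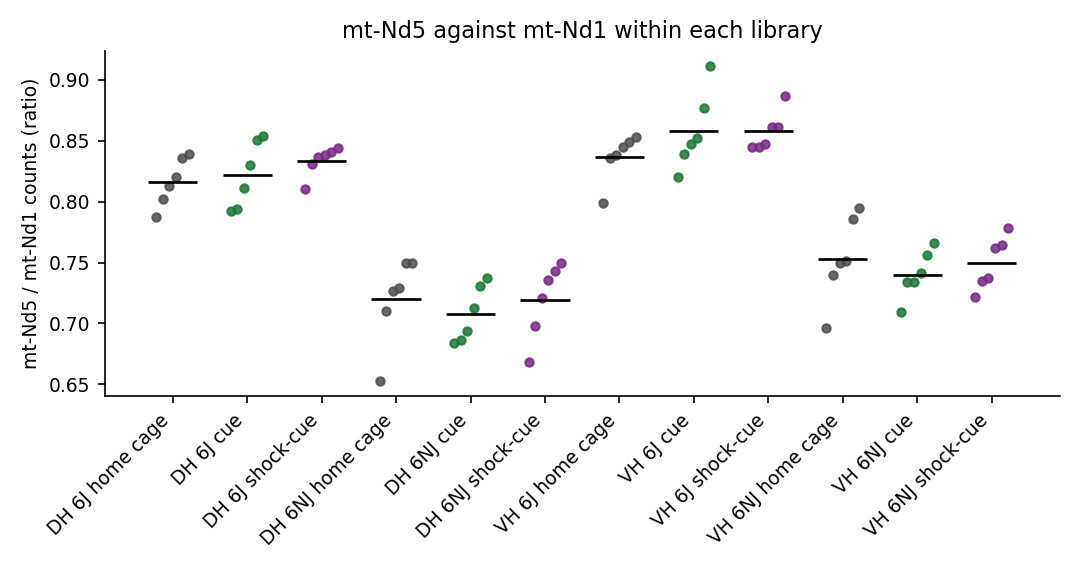
Ratio of mt-Nd5 to mt-Nd1 gene counts in each of the 72 libraries, by region, label and condition, with lines at the group means. Libraries labelled 6J lie at 0.787 to 0.911 and those labelled 6NJ at 0.653 to 0.795, without overlap within a region, while the 3 conditions of a label lie together.

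Of 37 nuclear gene models of complexes III, IV and V, 6 were higher and 1 lower under the label 6NJ in the DH. In the VH 2 were higher and 1 lower. Over all genes 14.7% and 9.92% were called, so these counts are near or below the background. Among them, Atp5b, the catalytic subunit of ATP synthase, was higher under the label 6NJ in the DH (0.15 ± 0.0223, adjusted p = 1.22e-05) and the VH (0.14 ± 0.0191, adjusted p = 2.43e-06). Atp5a1 was higher too (0.10 ± 0.0221 and 0.09 ± 0.0201), and Atp5j2 of the same complex was lower (-0.14 ± 0.0483, adjusted p = 0.0471, and -0.20 ± 0.0462, adjusted p = 0.0044). Without the Lcn2 codes Atp5j2 was called in the VH only (adjusted p = 0.131 in the DH). Fastkd5 was higher under 6NJ by 0.20 ± 0.0431 in the DH and 0.17 ± 0.0372 in the VH (adjusted p = 0.00182 and 0.00161). Of the large ribosomal subunit genes 9 of 48 were higher in the DH and 6 in the VH, with 0 lower in both. Over all genes, 1583 of 19647 (8.06%) were higher and 1306 lower in the DH. In the VH 954 of 19597 were higher and 991 lower. Other lists went both ways. Of the small ribosomal subunit genes in the VH, Mrps22 was higher (0.11 ± 0.0304) and Mrps10 lower (-0.13 ± 0.0257). In the DH Tfam was higher (0.08 ± 0.0252) and Tfb1m lower (-0.15 ± 0.0536) among the processing genes. Among the transfer RNA synthetases there, Iars2 was higher (0.15 ± 0.017) and Aars2 lower (-0.09 ± 0.0298). In the DH 8 of 10 oligodendrocyte markers were also higher under 6NJ (median 0.23) and 3 of 8 astrocyte markers lower (2 and 3 without the Lcn2 codes), and their part in the results was not tested.

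The third comparison, DH against VH, gave the most calls. Over the mean of the 6 label and condition groups 18 of 31 members were lower in the DH and none higher, against 30.9% of the 20255 genes tested that were lower and 63.6% called in either direction. mt-Nd5 was at 5293 to 9835 CPM (median 6608) in the 36 DH libraries and at 6122 to 11107 (median 7400) in the 36 VH libraries, so that the regions overlapped widely. It was lower in the DH by 0.22 on the log2 scale (-0.22 ± 0.0381, adjusted p = 5.97e-07). mt-Nd1 was at -0.17 ± 0.0396 (adjusted p = 0.000167), mt-Co1 at -0.15 ± 0.0384 (adjusted p = 0.000488), mt-Cytb at -0.15 ± 0.0389, mt-Nd4 at -0.13 ± 0.039 and mt-Nd2 at -0.11 ± 0.0379. mt-Nd6, of the other strand, was at -0.30 ± 0.0722 (adjusted p = 0.00024), with 50.9 to 141 CPM (median 73.9) in the DH and 62.5 to 148 (median 96.6) in the VH. Both ribosomal RNA genes were lower, mt-Rnr2 by 0.21 (-0.21 ± 0.0429, adjusted p = 2.28e-05) and mt-Rnr1 by 0.15 (-0.15 ± 0.0437, adjusted p = 0.00251). The transfer RNA genes called were mt-Tq (-0.35 ± 0.0832), mt-Td (-0.37 ± 0.101), mt-Tp (-0.23 ± 0.0786), mt-Tw (-0.16 ± 0.0587) and mt-Ti (-0.13 ± 0.0596). mt-Tl1, at -0.09 ± 0.0545 (adjusted p = 0.142), was not called.

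For the low genes the estimated counts gave -0.17 for mt-Co2, -0.13 for mt-Atp6, -0.15 for mt-Atp8 and -0.18 for mt-Co3, where the gene counts gave -0.47, -0.63, -0.86 and -0.59. In the estimated counts all 12 messenger RNA genes were called lower in the DH, between -0.11 (mt-Nd2) and -0.29 (mt-Nd6).

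The nuclear partners of these genes were lower in the DH too. Of 37 gene models of complexes III, IV and V, 33 were lower and 0 higher, with log2 differences from -0.23 to 0.02 and a median of -0.13. Of the ribosomal proteins of the organelle, 33 large subunit genes were lower and 3 higher of 48, and 20 small subunit genes were lower and 2 higher of 31. The list for transcription and RNA processing was mixed, with 9 higher and 11 lower of 32: Polg, the polymerase that copies the genome, was at 0.14 ± 0.0158 (adjusted p = 6.06e-12) and Lrpprc, which stabilizes mitochondrial messenger RNAs, at -0.13 ± 0.0183 (adjusted p = 4.39e-09). Of the transfer RNA synthetases 4 were higher and 8 lower of 17. Over all 20255 genes tested 63.6% were called, with 6633 higher and 6255 lower. The counts for the processing list and the synthetases are near that share. Cell type markers differed between the regions as well. All 10 choroid plexus markers (median 1.70), all 10 oligodendrocyte markers (median 0.85), all 8 microglia markers and 4 of 5 blood markers were higher in the DH, as were 4 of 8 astrocyte markers and 5 of 8 markers of pyramidal and granule neurons. The summed choroid plexus markers ran from 48.4 to 9090 CPM in the DH and from 30.9 to 2398 in the VH. Lower in the DH were 4 of 6 interneuron markers, 3 of 8 pyramidal and granule neuron markers, 2 astrocyte markers and 1 of 8 endothelial markers, and the part of these markers in the results was not tested.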

How the data were processed

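Libraries of polyadenylated RNA gave single-end reads, 75 bases long, per the labels' protocols. The gene table deposited by the authors holds whole-number counts of reads per gene, not normalized, with columns as featureCounts writes them, and the transcript table deposited by the authors holds estimated counts in the columns of kallisto. HISAT2, featureCounts, kallisto, FastQC, DESeq2 and the build GRCm38 are named in the submitters' processing notes. For versions, the strand setting and reads with several matches, the answer is "not given in the sources used here". Only 12 messenger RNA members are in the transcript table, and their estimated counts were rounded and summed per gene.

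The test was edgeR's quasi-likelihood F-test (version 4.0.16, R 4.3.3) after TMM scaling, a low-count filter (filterByExpr on the groups) and robust glmQLFit. P-values were adjusted by Benjamini-Hochberg over all genes tested, with a threshold of 0.05. Every adjusted p comes from this test unless DESeq2 1.42.0 is named. Each fit estimated the group means without covariates, over 36 libraries within a region and over 72 for the region comparison. The low-count filter kept 29 members in the DH (without mt-Tc, mt-Ty, mt-Ts1, mt-Tk and mt-Ts2), 30 in the VH (mt-Tc passed) and 31 in the joint fit (mt-Ts2 passed too). CPM values use TMM library sizes. The fit was also run on simulated counts, for the label comparison in DH home cage libraries only. Genes varied independently there with a fixed spread, so that run does not bear on members that vary together. Library totals were 30330382 to 56258370 gene counts and 32208170 to 59879104 estimated counts, and no column was left unmatched. Sequences come from the GENCODE vM21 transcripts (GRCm38), and windows of 75 bases of each member were looked up in all annotated transcripts off the mitochondrial genome.

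Samples were grouped by their labels. No label says that the libraries of a group are from separate mice, and p-values then measure only the spread between these libraries, which may be technical. The members, the gene lists and the tests were chosen with earlier results of these data known. By the rule for named genes, messenger and ribosomal RNA members were named with full values, transfer RNA members where they passed the filter or were among the 5 highest, nuclear copies of members, and of each nuclear list the 2 genes with the smallest p in each direction among those past the threshold. mt-Ts1, mt-Tk and mt-Ty fall outside it. Alternatives were DESeq2, RLE size factors, no low-count filter, only the groups compared, library sizes from genes off the mitochondrial genome, estimated transcript counts, the code as a block, and leaving out the codes with Lcn2 above 2 CPM. For the nuclear lists, DESeq2 and the last of these were added after seeing the data.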

Additional observations from a re-analysis of the deposited data

Results flagged for a closer look

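Within groups of 6, a library was marked where it stood apart from the other 5 by Dixon's criterion, which chance alone meets in about 1 of 20 groups. Of 156 pairs of a member and a group (13 members), 12 were marked. In the VH cue group labelled 6J, library 32B, 1 of those with Lcn2, was the lowest for mt-Co1 (14638 CPM, the next 17280), mt-Cytb (10462), mt-Nd2 (5987), mt-Nd4 (4996) and mt-Nd5 (6225). In the DH cue group labelled 6J, the libraries 34A and 32A, both with Lcn2 too, were the lowest for mt-Nd6 (50.9 CPM) and the highest for mt-Rnr2 (7399 CPM). In the VH shock-cue group labelled 6NJ, library 39B was the lowest for mt-Rnr1 (3565 CPM) and mt-Rnr2 (5941 CPM). In the VH cue group labelled 6NJ, library 38B was the lowest for mt-Ti (39.1 CPM) and mt-Tw (40.8 CPM), and in the DH home cage group labelled 6NJ library 42B was the lowest for mt-Tw (37.1 CPM).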

How the results depend on the processing

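Counts of members called, with the reported count in brackets, moved by over 1.5 times as follows. Without the codes with Lcn2: label difference 2 in the DH (1) and 1 in the VH (5), cue 0 in the DH 6J (4), 1 in the DH 6NJ (0) and 0 in the VH 6J (9), shock-cue 0 in the VH 6J (1). DESeq2: label difference 2 in the DH, cue 8 in the DH 6J and 2 in the DH 6NJ, shock-cue 3 in the VH 6J. Over all genes DESeq2 called, in the same order, 3199 of 18878, 1399 of 19258, 631 of 18116 and 950 of 16934. Only the groups compared: cue 1 in the DH 6J and 2 in the VH 6NJ (7), shock-cue 0 in the DH 6J (2), the DH 6NJ (2) and the VH 6NJ (2). No low-count filter: label difference 2 in the VH, cue 5 in the VH 6J and 3 in the VH 6NJ, shock-cue 0 in the DH 6J, 0 in the VH 6J and 1 in the VH 6NJ. Estimated transcript counts of messenger RNA genes: label difference 1 in the VH (2), cue 7 in the VH 6NJ (4). The cause was not tested beyond what each setting changes by construction (fewer libraries, more genes tested). Under every setting run, no member called with or without it changed sign. Uncalled differences did change sign: 40 of 264 with estimated counts, 53 of 652 without the Lcn2 codes, and 3 to 5 with DESeq2, RLE size factors, library sizes off the mitochondrial genome, no filter or only the groups compared. Of the members' calls, DESeq2 kept 50 of 50, RLE size factors 51 of 51, library sizes off the mitochondrial genome 50 of 51, estimated counts 21 of 23, no filter 35 of 51, only the groups compared 18 of 32, and leaving out the Lcn2 codes 27 of 51. For the label differences over 3 conditions, the groups compared are all groups of the region, so that setting repeats the reported fit. Their calls, 1 in the DH and 5 in the VH, were kept by construction and are among the 18. With the code as a replicate block, 16 members were called between the regions (18; mt-Atp8 and mt-Ti lost, adjusted p = 0.0671 and 0.0521) and 0 for the interaction of region and label. The labels do not say what libraries of 1 code share, and not every code correlated over 0.1, so the code was not taken as a pairing: over 20255 genes the same-code correlation of DH and VH deviations was -0.19 to 0.44 (median 0.15, over 0.1 for 23 of 36 codes), and 17 of 36 DH libraries matched their own code best, a hint from the data and not the design. Transfer RNA genes under about 1 CPM rest on few counts. Of the 5 low messenger RNA genes, all but mt-Atp8 share nearly all their windows of 75 bases with annotated nuclear transcripts. The part of this sharing in their low gene counts was not tested.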
